A study of Mus musculus with 15 samples.

Results

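Collagen, laminin and other extracellular matrix genes were examined in the retina of newborn mice that had lost 1 or both copies of Neurog2, a transcription factor that drives progenitors towards neurons. Members were taken by gene symbol: all collagen and laminin chain symbols, nidogens, perlecan, agrin, fibronectin, tenascins, lecticans, fibrillins, fibulins, the SPARC proteins, decorin, lumican and opticin. Of 15870 gene symbols in the table of HET and WT, 54 matched, with 103 transcripts, and 49 of these reached 0.5 FPKM (fragments mapped to a transcript, scaled to its length and to the size of the library) in either group. The same numbers of member genes were found in both other tables, where all 3 tables together held 50 genes at that level. A further 24 matrix genes listed by name, among them Col3a1, Dcn, Lum and Acan, had no row in any of the 3 tables. No level can be given for them here. The pattern also took Col4a3bp, which encodes a ceramide transfer protein and no collagen. It stays in the counts and is named apart.

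Whole retinas came from CD-1 mice at postnatal day 2, in 3 groups of 5 samples. MUT carried Chx10Cre with both Neurog2 alleles floxed (Chx10Cre;Neurog2CKO/CKO). HET carried Chx10Cre with 1 floxed and 1 normal allele (Chx10Cre;Neurog2CKO/+). WT had both alleles floxed but no Cre (Neurog2CKO/CKO), so that each comparison with WT changes Cre together with Neurog2 dose. Chx10 is a gene of retinal progenitors, so that Cre under its control acts in these cells and their progeny, while vessels, astrocytes and microglia have another origin and keep the gene.

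Extracellular matrix at the retina's inner surface forms a basement membrane, the inner limiting membrane, on which the end feet of radial glia rest. Laminin trimers and type IV collagen each build a network there, and nidogens, perlecan and agrin link the networks. The vitreous beside it is held by thin fibrils of type II collagen with types IX and V/XI. Vessels that spread over the inner retina after birth add their own basement membranes, and fibronectin, tenascins and lecticans fill the space between cells. In bulk tissue, fewer cells of a type and less RNA per cell cannot be told apart.

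The targeted gene was lower in MUT and HET, as the labels have it. In the authors' deposited table Neurog2 was at 10.6 FPKM in MUT and 59.5 FPKM in WT, with a log2 fold change of -2.49 ± 0.32 (Cuffdiff q = 0.0388, ± being the standard error implied by the deposited test statistic). In the table of HET and WT it was at 42.4 FPKM in HET and 59.2 FPKM in WT in the authors' deposited table (-0.48 ± 0.28, q = 0.0769). All 15 retina markers reached 0.5 FPKM. Y-linked Kdm5d summed to 0.00117 FPKM in MUT and 3.73 FPKM in WT, and to 7.10 FPKM in HET and 4.95 FPKM in WT. Of 5 sex-linked genes listed, 5 had a row in HET over WT, and 3 in MUT over WT and in MUT over HET. Xist, expressed in females, summed to 135 FPKM in MUT and 98.8 FPKM in WT. With Kdm5d close to 0 in MUT, sex and Neurog2 dose cannot be told apart in the comparisons with MUT. The part of sex in the results was not tested in any comparison. Values of a group in its 2 tables differed by a median factor of 1.01 for WT, 1.00 for HET and 0.999 for MUT, since each table was normalized separately. Where 3 groups stand side by side below, HET and WT come from their common table and MUT from its table with WT.

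Type IV collagen genes lie in head-to-head pairs. All 4 measured chains had higher values in MUT and in HET than in WT, though none passed the test. Both pairs are shown because the chains of each pair kept nearly the same ratio in the 3 groups, as described further on. Levels of most other members were also close among the groups, so that a steady ratio does not set these pairs apart. A link between the promoters and these levels was not tested. In RefSeq (GRCm38.p6) the start sites of Col4a1 and Col4a2 lie 21 bases apart on opposite strands, and their windows from 250 bases before to 50 bases after the start overlap by 78 bases. The start sites of Col4a5 and Col4a6 lie 1343 bases apart, also on opposite strands, and their windows share no base. Windows run 5′ to 3′ on the gene's own strand. Capitals mark matches, on either strand, to the GC box GGGCGG, the CTC box CCCTCCCC and the CCAAT box CCAAT.
Col4a1 promoter, chr8:11312777-11313076, minus strand: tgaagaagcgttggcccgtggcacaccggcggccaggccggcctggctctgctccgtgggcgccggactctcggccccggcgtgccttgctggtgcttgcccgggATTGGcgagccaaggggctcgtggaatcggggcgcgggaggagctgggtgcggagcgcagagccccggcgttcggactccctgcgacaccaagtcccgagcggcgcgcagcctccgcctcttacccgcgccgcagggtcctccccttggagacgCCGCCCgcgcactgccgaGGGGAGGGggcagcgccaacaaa
Col4a2 promoter, chr8:11312555-11312854, plus strand: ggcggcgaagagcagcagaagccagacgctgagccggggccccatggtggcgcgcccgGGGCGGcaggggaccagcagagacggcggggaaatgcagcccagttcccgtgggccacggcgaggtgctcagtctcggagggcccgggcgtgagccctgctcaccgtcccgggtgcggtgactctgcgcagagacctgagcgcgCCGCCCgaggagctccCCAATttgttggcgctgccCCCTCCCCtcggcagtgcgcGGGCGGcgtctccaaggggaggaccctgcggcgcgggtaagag
Col4a5 promoter, chrX:141475169-141475468, plus strand: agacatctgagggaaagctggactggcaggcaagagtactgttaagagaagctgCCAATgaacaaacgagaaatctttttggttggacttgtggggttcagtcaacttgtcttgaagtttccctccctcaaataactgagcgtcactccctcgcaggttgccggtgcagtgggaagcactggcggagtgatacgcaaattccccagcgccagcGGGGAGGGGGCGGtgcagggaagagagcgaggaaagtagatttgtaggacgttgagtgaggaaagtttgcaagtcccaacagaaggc
Col4a6 promoter, chrX:141474027-141474326, minus strand: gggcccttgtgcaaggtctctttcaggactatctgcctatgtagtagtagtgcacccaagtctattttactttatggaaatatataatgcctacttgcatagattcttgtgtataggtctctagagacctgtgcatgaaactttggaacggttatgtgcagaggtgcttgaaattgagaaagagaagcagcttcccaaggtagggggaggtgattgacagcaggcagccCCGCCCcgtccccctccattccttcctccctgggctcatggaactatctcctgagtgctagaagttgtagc

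The GC box at 11312812 to 11312817 and the CTC box at 11312792 to 11312799 on chromosome 8 lie in the overlap and so are the same bases in the Col4a1 and Col4a2 windows. With starts at 11312826 for Col4a1 and 11312805 for Col4a2, the first bases of both transcripts overlap. This GC box lies after both starts, and the CTC box lies after the start of Col4a1 and before that of Col4a2. Col4a2 had 2 further GC boxes, and each of these windows had 1 CCAAT box. Col4a5 had a GC box and a CTC box that share a base, and a CCAAT box. Col4a6 had 1 GC box and neither of the other motifs in this window. Of 32851 promoter windows of the same length, 35.7% held a GC box, 10.8% a CTC box and 37.4% a CCAAT box. The share of G and C was 74.0% for Col4a1, 73.7% for Col4a2, 52.7% for Col4a5 and 48.3% for Col4a6, against a median of 52.7% over all windows. A match is a description of these letters and not a site of binding.

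The matrix RNA of this retina was led by vitreous fibril and basement membrane components. Col2a1, the chain of type II collagen, was highest at 122 FPKM in MUT, 109 FPKM in HET and 114 FPKM in WT. Sparc, a collagen-binding secreted protein, had 98.9 FPKM in MUT, 95.7 FPKM in HET and 101 FPKM in WT. Agrn, a heparan sulphate proteoglycan that binds laminin and dystroglycan, had 71.1 FPKM in MUT, 70.3 FPKM in HET and 74.5 FPKM in WT. For these 3 genes the highest group was within 1.12 times the lowest. The 8 highest members held 70.8% of the summed member FPKM of WT. The member total was 703 FPKM in MUT, 680 FPKM in HET and 677 FPKM in WT. In WT, 13 of 54 members exceeded 10 FPKM, 26 lay between 1 and 10 FPKM, and 15 lay below 1 FPKM. Just above the 0.5 FPKM limit stood Lama4, with 0.512 FPKM in its highest group, and just below it Col7a1, with 0.401 FPKM.

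**Figure D1:**
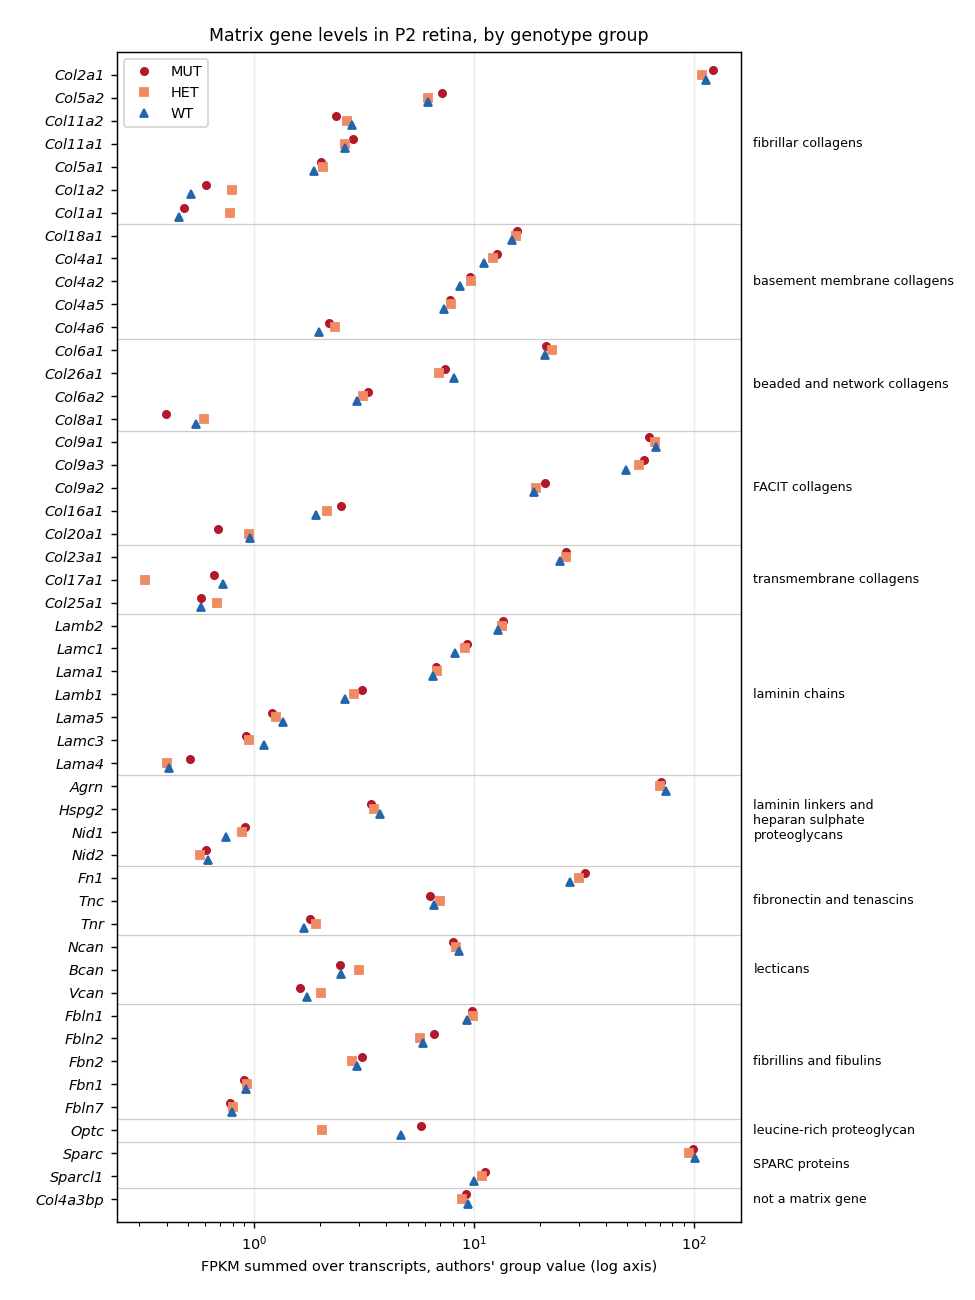
FPKM summed over transcripts on a log axis for the 50 matrix genes at 0.5 FPKM or more in any table, ordered by role; circles are MUT, squares HET and triangles WT, each 1 pooled value of 5 samples without an error. The 3 marks of most genes lie close together, with Optc (5.74 FPKM in MUT, 2.04 FPKM in HET and 4.65 FPKM in WT) farthest apart.

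Levels were close among the groups for most members. Over the 50 genes, 46 had a highest group under 1.5 times the lowest. The exceptions were Optc, Col17a1, Col1a1 and Col1a2. MUT was the highest group for 20 genes, HET for 17 and WT for 13. Shares over all genes were not computed for these counts, so that they do not set the matrix genes apart from other genes.

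With a q-value limit of 0.05, the authors' deposited tables call none of the member transcripts in any comparison. For HET over WT, 0 of 103 transcripts were called and the background was 0% of 44119 rows. For MUT over WT, 0 of 103 were called and the background was 0.115% of 44526 rows. For MUT over HET, 0 of 102 were called and the background was 0% of 43959 rows. The smallest deposited Cuffdiff p-value was 5e-05, and it gave a q-value of 0.0769 in HET over WT and 0.0762 in MUT over HET. No transcript of any gene could thus be called in those 2 comparisons, Neurog2 included. The Cuffdiff p-values had a mean of 0.689, 0.676 and 0.698 over all rows of HET over WT, MUT over WT and MUT over HET. A lack of calls is thus no evidence of equal levels. At an unadjusted p under 0.05, 2 member transcripts stood in HET over WT (both higher, background 0.515% in either direction and 0.227% higher), 1 in MUT over WT (higher, background 0.851% in either direction and 0.368% higher) and 3 in MUT over HET (all lower, background 0.814% in either direction and 0.471% lower). As shares these are 1.94%, 0.971% and 2.94% of the member transcripts. Among transcripts of 0.5 FPKM or more the counts were 2 of 85 in HET over WT (background 0.572%), 1 of 88 in MUT over WT (background 0.931%) and 3 of 87 in MUT over HET (background 0.888%). With counts of 1 to 3, nothing is read from the gap between these shares. Precision differed with level: among member transcripts of 10 FPKM or more the implied standard error had a median of 0.35 on the log2 scale in HET over WT, 0.35 in MUT over WT and 0.28 in MUT over HET, and under 1 FPKM it was 2.02, 1.87 and 1.32. The smallest log2 fold change that was called over the whole table of MUT and WT was 0.46 in size, and no smaller difference was called there for any gene.

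As a set the members lay close to all genes. The median log2 ratio of (FPKM + 0.1) was 0.07 in HET over WT over 49 genes, against 0.01 over all 14798 genes at the same level. In MUT over WT it was 0.07 against 0.01 over all genes, and in MUT over HET it was 0.00 for both. Members above 0 numbered 31 of 49 in HET over WT (background 53.2%), 29 of 49 in MUT over WT (background 53.8%) and 24 of 49 in MUT over HET (background 52.1%). A ratio of 0.25 or more in size was seen for 5 members in HET over WT (background 13.1%), 6 in MUT over WT (background 14.4%) and 8 in MUT over HET (background 9.16%). The first pair of comparisons shares the WT samples, so that they are not independent.

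**Figure D2:**
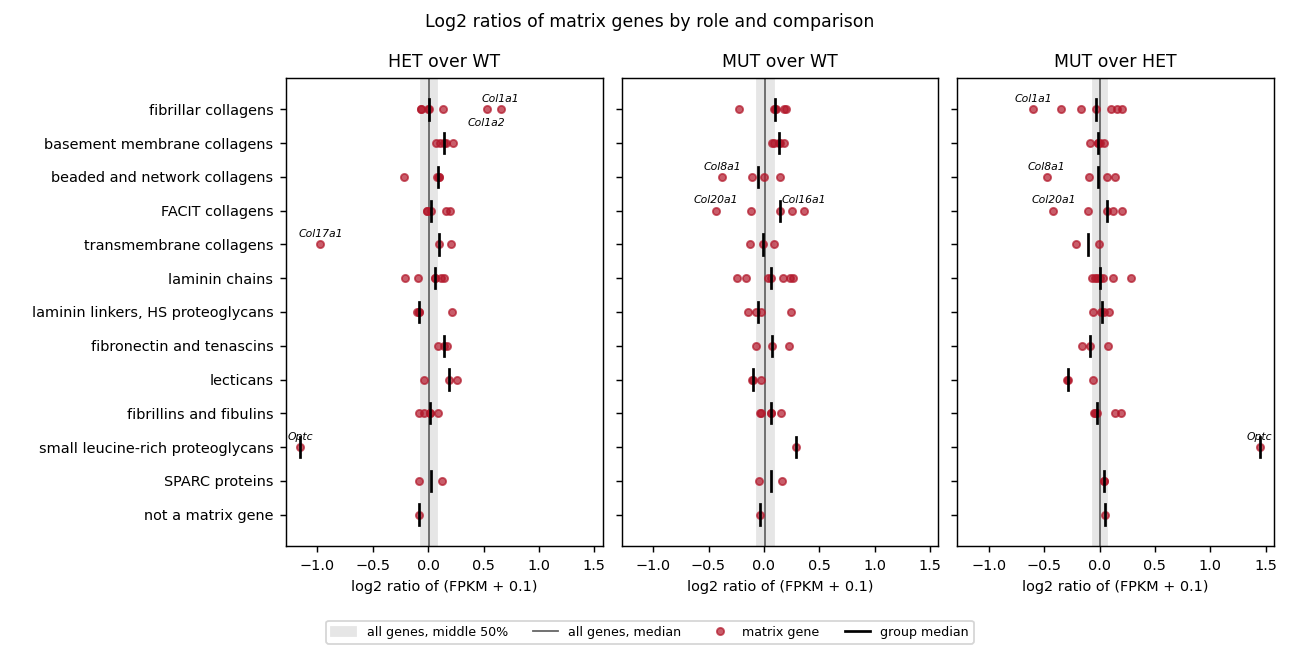
Log2 ratios of matrix genes by role in HET over WT, MUT over WT and MUT over HET; each circle is 1 gene, black bars are group medians, and the grey band and line give the middle 50% and the median of all genes at 0.5 FPKM or more. Optc lies at -1.15, 0.29 and 1.45, outside the band in each comparison, and most other genes lie in or near it.

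Among fibrillar collagens, the chains of type I collagen, the main collagen of connective tissue, had their highest value in HET. Col1a1 (chromosome 11, 94936223 to 94953042, mm10) had 0.480 FPKM in MUT, 0.774 FPKM in HET and 0.455 FPKM in WT. In the authors' deposited tables its log2 fold change was 0.77 ± 0.67 for HET over WT (p = 0.0106, q = 1.00), 0.07 for MUT over WT (p = 0.819) and -0.70 ± 0.48 for MUT over HET (p = 0.00135, q = 0.840). Col1a2 (chromosome 6, 4504813 to 4541544) had 0.604 FPKM in MUT, 0.793 FPKM in HET and 0.519 FPKM in WT. Its log2 fold change in the authors' deposited tables was 0.61 ± 0.67 for HET over WT (p = 0.0425), 0.21 for MUT over WT (p = 0.472) and -0.40 ± 0.48 for MUT over HET (p = 0.062). Both chains thus ranked HET, MUT, WT, both stayed under 1 FPKM, and neither passed the correction in any comparison. The pooled values do not show how many of the 5 HET samples carry the higher level.

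Beside type I collagen, markers of other tissues were examined, and their part in the result was not tested. Of 18 fibroblast and stroma markers 5 reached 0.5 FPKM, and the list had 240 FPKM in HET and 228 FPKM in WT, and to 220 FPKM in MUT and 229 FPKM in WT. By FPKM its highest gene was Crabp1, which retinal neurons also express. Crabp1 had 157 FPKM in MUT and 179 FPKM in HET (-0.19 ± 0.22, Cuffdiff p = 0.0451) in the authors' deposited table. This was the lowest ratio of the list in MUT over HET. Of 22 lens markers, 9 reached 0.5 FPKM in HET over WT, 8 of them above 0, and the sum of the list was 14.5 FPKM in HET and 9.75 FPKM in WT. In MUT over HET it summed to 8.19 FPKM in MUT and 15.0 FPKM in HET, with 9 of 11 below 0. The crystallin gene Cryaa was at 1.11 FPKM in HET and 0.470 FPKM in WT (p = 0.013), and at 0.411 FPKM in MUT and 1.12 FPKM in HET (-1.44 ± 0.86, p = 0.0004, q = 0.361), in the authors' deposited tables. Crygb, another crystallin gene, was at 0.0514 FPKM in MUT and 0.974 FPKM in HET (p = 0.0176) in the authors' deposited table. Of 15 retinal pigment epithelium markers 6 reached 0.5 FPKM, with a sum of 27.0 FPKM in HET and 25.6 FPKM in WT, and to 24.9 FPKM in MUT and 27.3 FPKM in HET.

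The other fibrillar chains did not pass the test. Col5a2, which joins type I and type II fibrils, had 7.18 FPKM in MUT, 6.19 FPKM in HET and 6.20 FPKM in WT, and its log2 fold change for MUT over HET was 0.21 ± 0.24 (p = 0.0554) in the authors' deposited table. Col11a1 and Col11a2, partners of type II collagen in thin fibrils, had 2.81 and 2.37 FPKM in MUT, 2.60 and 2.66 FPKM in HET, and 2.59 and 2.78 FPKM in WT. Of 7 fibrillar genes at 0.5 FPKM in HET over WT, 4 lay above 0, with a median of 0.01. In MUT over WT 5 of 6 lay above 0, with a median of 0.10, and in MUT over HET 3 of 7, with a median of -0.03.

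Collagens that decorate fibrils included type IX, a FACIT collagen (fibril-associated, with interrupted triple helices) on the surface of type II fibrils. Col9a3 had 59.2 FPKM in MUT, 56.5 FPKM in HET and 49.3 FPKM in WT. Its main coding transcript, Col9a3-201 (chromosome 2, 180597789 to 180642708), had a log2 fold change of 0.30 ± 0.28 for MUT over WT (p = 0.0164, q = 1.00), 0.19 for HET over WT (p = 0.131) and 0.11 for MUT over HET (p = 0.269) in the authors' deposited tables. It was the 1 matrix transcript with an unadjusted p under 0.05 in MUT over WT. Of its partner chains, Col9a1 had 62.4 FPKM in MUT, 67.0 FPKM in HET and 67.4 FPKM in WT, and Col9a2 had 21.0 FPKM in MUT, 19.2 FPKM in HET and 18.9 FPKM in WT, the same order of groups as Col9a3. No difference between chains was tested. The ratio of Col9a1 to Col9a2 was 2.97 in MUT, 3.48 in HET and 3.57 in WT. Among the smaller FACIT genes, Col16a1 had 2.50 FPKM in MUT, 2.14 FPKM in HET and 1.91 FPKM in WT. Its log2 ratio of 0.36 for MUT over WT was the highest of the members there. Its coding transcript Col16a1-210 was at 1.09 FPKM in MUT and 0.948 FPKM in WT (0.20 ± 0.69, Cuffdiff p = 0.509) in the authors' deposited table. The non-coding Col16a1-207 (0.995 and 0.802 FPKM) and Col16a1-205 (0.410 and 0.170 FPKM) made up the rest, with implied errors of 1.99 and 5.11. Col20a1 had 0.689 FPKM in MUT, 0.950 FPKM in HET and 0.961 FPKM in WT, a log2 ratio of -0.43 for MUT over WT, the lowest of the members there.

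**Figure D3:**
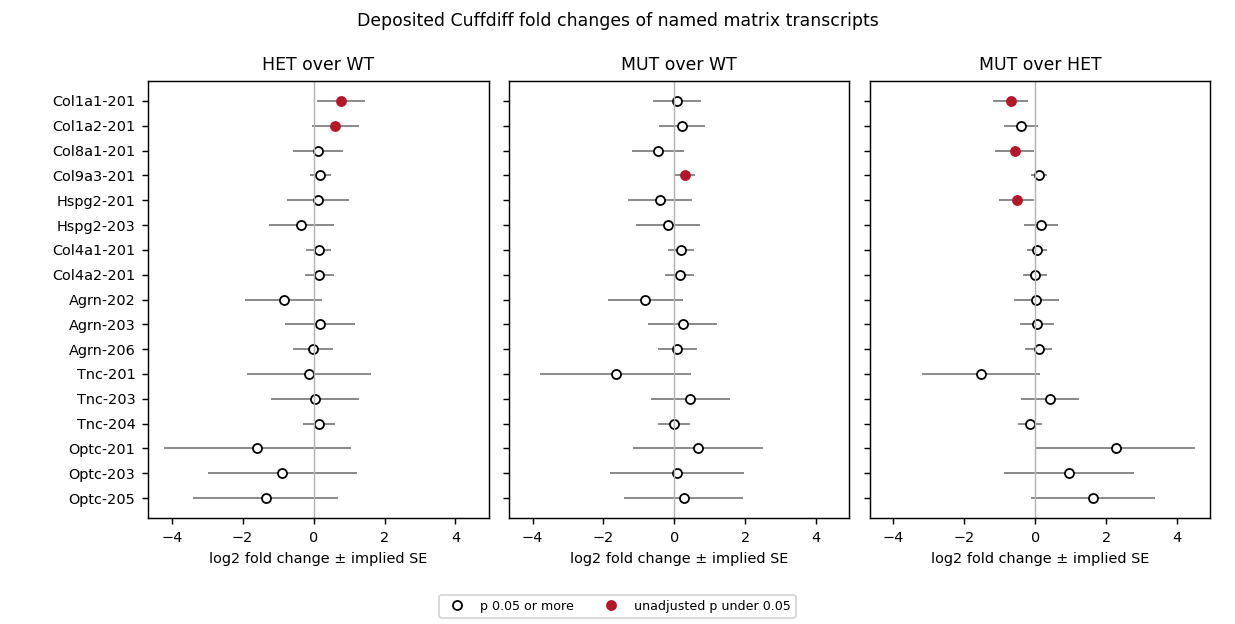
Deposited log2 fold changes of selected coding transcripts in the 3 comparisons, with bars of 1 implied standard error. The genes are Col1a1, Col1a2, Col8a1, Col9a3, Hspg2, Col4a1, Col4a2, Agrn, Tnc and Optc. They include every member gene with an unadjusted p under 0.05, so the share of filled circles is not that of all members. Filled circles have an unadjusted p under 0.05 and open circles do not. Filled circles are those of Col1a1 and Col1a2 in HET over WT, Col9a3 in MUT over WT, and Col1a1, Col8a1 and Hspg2-201 in MUT over HET, and none passed the correction.

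Basement membrane collagens were the role group with all measured genes above 0 in both comparisons with WT: 5 of 5 in HET over WT (median 0.14) and 5 of 5 in MUT over WT (median 0.14). No single transcript passed the test or had an unadjusted p under 0.05. In MUT over HET, 2 of 5 lay above 0, with a median of -0.01. Col4a1 (chromosome 8) had 12.7 FPKM in MUT, 12.3 FPKM in HET and 11.1 FPKM in WT. In the authors' deposited tables this was 0.18 ± 0.36 for MUT over WT (p = 0.249) and 0.14 ± 0.36 for HET over WT (p = 0.375). Col4a2 had 9.62 FPKM in MUT, 9.66 FPKM in HET and 8.63 FPKM in WT, with 0.15 ± 0.41 for MUT over WT (p = 0.419) and 0.16 ± 0.41 for HET over WT (p = 0.376) in the authors' deposited tables. These differences are smaller than the implied errors. The ratio of Col4a1 to Col4a2, which are built into the trimer as a pair of α1 chains with an α2 chain, was 1.32 in MUT, 1.27 in HET and 1.29 in WT.

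The X-linked pair had lower levels. Col4a5 had 7.81 FPKM in MUT, 7.87 FPKM in HET and 7.30 FPKM in WT, and Col4a6 had 2.19 FPKM in MUT, 2.33 FPKM in HET and 1.97 FPKM in WT, a ratio of Col4a5 to Col4a6 of 3.56 in MUT, 3.38 in HET and 3.70 in WT. For Col4a6 the log2 fold change was 0.15 ± 0.42 for MUT over WT (p = 0.427) and 0.24 ± 0.43 for HET over WT (p = 0.210) in the authors' deposited tables. The X-linked Xist summed to 135 FPKM in MUT and 98.8 FPKM in WT, and to 63.2 FPKM in HET and 98.3 FPKM in WT, and the part of sex in the values of this pair was not tested. Col18a1, a heparan sulphate collagen that is the source of endostatin, was highest of the role group with 15.8 FPKM in MUT, 15.6 FPKM in HET and 14.9 FPKM in WT. Col15a1, its relative, stayed under the limit with 0.380 FPKM in MUT, 0.330 FPKM in HET and 0.312 FPKM in WT.

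Endothelial markers were also mostly above 0 in both comparisons with WT. Of 20 endothelial markers 8 reached 0.5 FPKM, with 7 above 0 in MUT over WT and 6 in HET over WT; the list summed to 161 FPKM in MUT and 143 FPKM in WT, and to 149 FPKM in HET and 142 FPKM in WT. Cldn5, a tight junction protein of endothelium, rose in MUT to 19.2 FPKM, against 11.8 FPKM in WT, with a log2 fold change of 0.70 ± 0.38 (q = 0.0388) in the authors' deposited table. Rgs5, a pericyte gene, was at 1.71 FPKM in MUT and 0.890 FPKM in WT (0.94 ± 0.58, p = 0.00045, q = 0.266) in the authors' deposited table, and at 1.35 FPKM in HET and 0.885 FPKM in WT (0.60 ± 0.63, p = 0.0334). Of 14 pericyte and smooth muscle markers 6 reached 0.5 FPKM, 3 of them above 0 in each comparison with WT, and the list summed to 216 FPKM in MUT and 237 FPKM in WT, and to 256 FPKM in HET and 236 FPKM in WT. The part of vessel cells in the collagen values was not tested.

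Laminin chains were measured for α, β and γ subunits. Lamb2, the β2 chain, was highest with 13.6 FPKM in MUT, 13.5 FPKM in HET and 12.9 FPKM in WT, and Lamb1, the β1 chain, had 3.10 FPKM in MUT, 2.83 FPKM in HET and 2.61 FPKM in WT. Lamc1, the common γ1 chain, had 9.35 FPKM in MUT, 9.12 FPKM in HET and 8.23 FPKM in WT. Lama1, the α1 chain of the inner limiting membrane, had 6.73 FPKM in MUT, 6.82 FPKM in HET and 6.52 FPKM in WT, and Lama5, the α5 chain, 1.21 FPKM in MUT, 1.26 FPKM in HET and 1.35 FPKM in WT. The highest level thus belonged to a β, then a γ, then an α chain in every group, with Lamb2 4.37 times Lamb1 in MUT, 4.75 times in HET and 4.95 times in WT. Lama4, the α4 chain of vessel basement membrane, had 0.512 FPKM in MUT, 0.402 FPKM in HET and 0.409 FPKM in WT, with log2 fold changes of 0.32 for MUT over WT (p = 0.287) and 0.34 for MUT over HET (p = 0.142) in the authors' deposited tables. Lamc3, the γ3 chain, had 0.921 FPKM in MUT, 0.944 FPKM in HET and 1.11 FPKM in WT. Of 7 laminin genes, 5 lay above 0 in MUT over WT (median 0.07), and 4 of 6 in HET over WT (median 0.06). No laminin transcript had an unadjusted p under 0.05.

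Among the linkers, Nid1 (nidogen-1, which joins laminin to type IV collagen) had 0.909 FPKM in MUT, 0.879 FPKM in HET and 0.745 FPKM in WT, a log2 ratio of 0.25 for MUT over WT and 0.21 for HET over WT. Nid2 had 0.607 FPKM in MUT, 0.566 FPKM in HET and 0.616 FPKM in WT. Hspg2, which encodes perlecan, summed to 3.40 FPKM in MUT, 3.53 FPKM in HET and 3.74 FPKM in WT. Its transcript Hspg2-201 (chromosome 4, 137468768 to 137570630) was at 1.06 FPKM in MUT and 1.52 FPKM in HET (-0.52 ± 0.49, p = 0.0231, q = 1.00) in the authors' deposited table. The near-identical coding transcript Hspg2-203 had 1.23 FPKM in MUT and 1.10 FPKM in HET (0.16 ± 0.49, p = 0.454) in the authors' deposited table. The lengths of these transcripts are 14187 and 14176 nucleotides, and how reads are split between such close transcripts is uncertain; the gene sum moved by -0.06 on the log2 scale. Agrn had 6 transcripts. Its coding transcript Agrn-202 had 10.6 FPKM in MUT and 18.7 FPKM in WT (-0.82 ± 1.05, p = 0.0866), and 10.4 FPKM in HET and 18.6 FPKM in WT (-0.84 ± 1.08, p = 0.0847), in the authors' deposited tables. The gene sum differed by -0.07 for MUT over WT and -0.08 for HET over WT, on the scale of log2 (FPKM + 0.1).

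**Figure D4:**
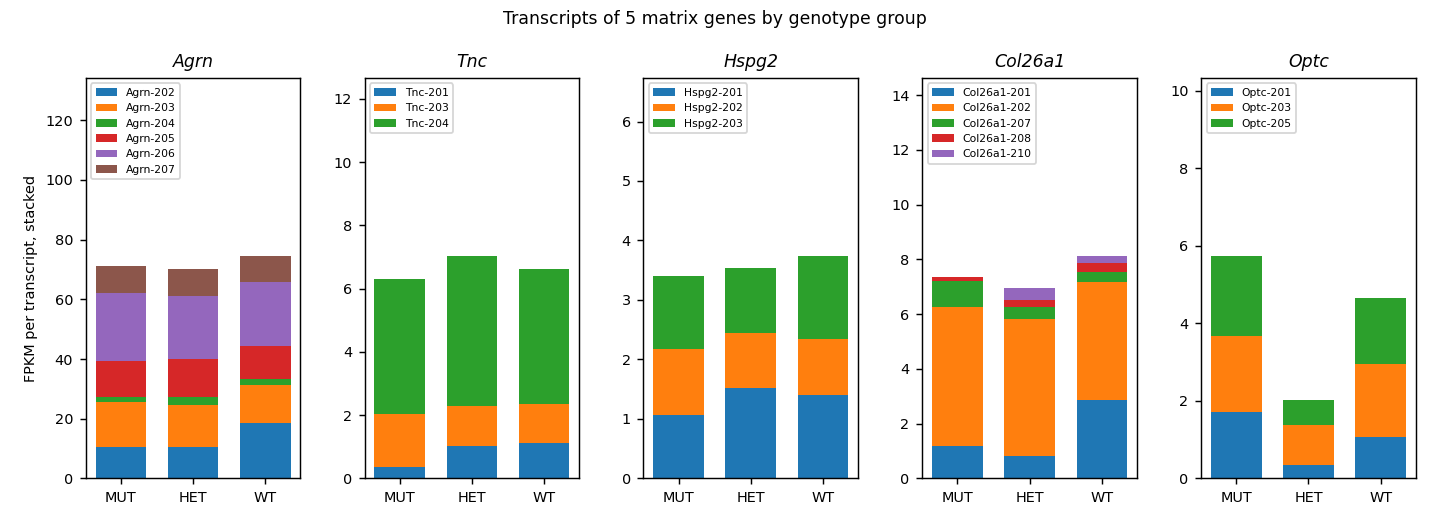
FPKM per transcript, stacked, for Agrn, Tnc, Hspg2, Col26a1 and Optc in MUT, HET and WT (HET and WT from their common table, MUT from its table with WT, where Col26a1-210 had no row). The height of the stacks differs little for Agrn, Tnc, Hspg2 and Col26a1, while Optc is lowest in HET for each of its 3 transcripts.

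Network and transmembrane collagens varied more where levels were low. Col6a1, a chain of beaded microfibrils, had 21.2 FPKM in MUT, 22.6 FPKM in HET and 21.1 FPKM in WT, and its partner Col6a2 had 3.28 FPKM in MUT, 3.12 FPKM in HET and 2.94 FPKM in WT. Col8a1, a network collagen of Descemet's membrane and vessel walls, had 0.399 FPKM in MUT, 0.592 FPKM in HET and 0.546 FPKM in WT. In the authors' deposited tables its log2 fold change was -0.57 ± 0.55 for MUT over HET (p = 0.0222, q = 1.00) and -0.46 for MUT over WT (p = 0.142). Its partner Col8a2, below 0.5 FPKM in every group, had 0.264 FPKM in MUT, 0.371 FPKM in HET and 0.366 FPKM in WT, with -0.50 ± 0.64 for MUT over HET (p = 0.0705) in the authors' deposited table. Both type VIII chains were lowest in MUT. Col26a1, a secreted collagen with an EMI domain, summed to 7.36 FPKM in MUT, 6.95 FPKM in HET and 8.13 FPKM in WT.

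Col23a1, a transmembrane collagen, was the highest of its role group with 26.3 FPKM in MUT, 26.2 FPKM in HET and 24.6 FPKM in WT. Col25a1, a transmembrane collagen of neurons, had 0.573 FPKM in MUT, 0.677 FPKM in HET and 0.574 FPKM in WT. Col17a1, a collagen of hemidesmosomes, had 0.660 FPKM in MUT, 0.320 FPKM in HET and 0.725 FPKM in WT, summed over 2 transcripts. Its coding transcript had a log2 fold change of -0.72 for HET over WT (p = 0.442) and 0.99 ± 1.09 for MUT over HET (p = 0.0791) in the authors' deposited tables.

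Opticin (Optc), a small leucine-rich proteoglycan that binds vitreous collagen fibrils and is made by the ciliary epithelium, had the widest range of all members. It summed to 5.74 FPKM in MUT, 2.04 FPKM in HET and 4.65 FPKM in WT. HET was lowest for each of its 3 coding transcripts, and MUT and WT lay closer together. The log2 ratio of sums was -1.15 for HET over WT, 0.29 for MUT over WT and 1.45 for MUT over HET. In the authors' deposited tables the log2 fold changes for MUT over HET were 2.26 ± 2.24 for Optc-201 (p = 0.164), 0.95 ± 1.85 for Optc-203 (p = 0.293) and 1.61 ± 1.75 for Optc-205 (p = 0.110). None of the 3 had an unadjusted p under 0.05 in any comparison, and the implied errors ranged from about the size of the change to well above it. Its neighbour Prelp, a related proteoglycan in the same locus (chromosome 1, 133897198 to 133921414), summed to 15.2 FPKM in MUT, 15.2 FPKM in HET and 16.1 FPKM in WT. Of 8 ciliary margin markers 5 reached 0.5 FPKM, and the list summed to 73.3 FPKM in MUT and 52.4 FPKM in WT, and to 62.1 FPKM in HET and 52.2 FPKM in WT. In HET over WT, 3 of the 5 lay above 0 and 2 below. Zic1, a transcription factor of the ciliary margin, rose in MUT to 19.0 FPKM for 1 transcript, against 11.0 FPKM in WT (0.79 ± 0.38, q = 0.0388) in the authors' deposited table. The same transcript was at 17.2 FPKM in HET and 11.0 FPKM in WT (0.65 ± 0.39, p = 2e-04, q = 0.288) in the authors' deposited table. Ccnd2 and Zic2 of this list had transcripts at an unadjusted p under 0.05 without a call. The part of ciliary margin cells in the Optc values was not tested.

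Fibronectin, tenascins and lecticans belong to the space between cells. Fn1, the fibronectin gene, on which retinal astrocytes and vessels migrate, had 32.2 FPKM in MUT, 30.1 FPKM in HET and 27.3 FPKM in WT. Its main transcript had a log2 fold change of 0.22 ± 0.29 for MUT over WT (p = 0.0875) in the authors' deposited table. Tnc, tenascin-C of glia and progenitors, had 6.30 FPKM in MUT, 7.03 FPKM in HET and 6.61 FPKM in WT, and Tnr, tenascin-R of perineuronal matrix, 1.79 FPKM in MUT, 1.91 FPKM in HET and 1.69 FPKM in WT. The minor transcript Tnc-201 had 0.359 FPKM in MUT and 1.04 FPKM in HET (-1.53 ± 1.65, p = 0.055), while the main transcript Tnc-204 had 4.26 FPKM in MUT and 4.75 FPKM in HET (-0.16 ± 0.34, p = 0.292), in the authors' deposited table. Beside Fn1, astrocyte markers had a median of 0.26 in MUT over WT (6 of 7 above 0, summing to 63.5 FPKM in MUT and 59.1 FPKM in WT). In HET over WT their median was -0.01 (2 of 7 above 0, a total of 57.0 FPKM in HET and 58.6 FPKM in WT), and their part was not tested. Among them Pdgfra, the receptor of the astrocytes' growth factor, was at 5.20 FPKM in MUT and 4.01 FPKM in WT (0.38 ± 0.41, p = 0.037) in the authors' deposited table. Pax2, an astrocyte precursor factor, had a log2 fold change of 0.68 ± 0.62 for MUT over HET (p = 0.0144) in the authors' deposited table.

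Lecticans, the hyaluronan-binding chondroitin sulphate proteoglycans, had 0 of 3 measured genes above 0 in MUT over WT (median -0.10) and 0 of 3 in MUT over HET (median -0.28), and 2 of 3 in HET over WT (median 0.19). Ncan (neurocan) was highest with 8.02 FPKM in MUT, 8.30 FPKM in HET and 8.55 FPKM in WT. Bcan (brevican) had 2.46 FPKM in MUT, 3.00 FPKM in HET and 2.49 FPKM in WT, and its log2 fold change for MUT over HET was -0.29 ± 0.38 (p = 0.0805) in the authors' deposited table. Vcan (versican) had 1.62 FPKM in MUT, 2.01 FPKM in HET and 1.75 FPKM in WT. In the authors' deposited tables its 294-nucleotide transcript Vcan-204 was at 0.0959 FPKM in MUT and 0.337 FPKM in WT. In MUT over HET it was at 0.0955 and 0.486 FPKM, and both implied errors were far above the change. Of the longer transcripts, Vcan-206 was higher in MUT than in WT and lower than in HET, and Vcan-203 the reverse. The lectican counts and medians in both comparisons with MUT thus rest in part on Vcan-204. No lectican transcript had an unadjusted p under 0.05.

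Fibulins and fibrillins are components of microfibrils and elastic fibres, and none of them had a transcript at an unadjusted p under 0.05. Fbln1 had 9.80 FPKM in MUT, 9.92 FPKM in HET and 9.35 FPKM in WT. Fbln2 had 6.57 FPKM in MUT, 5.72 FPKM in HET and 5.88 FPKM in WT, with 0.24 ± 0.30 for its main transcript in MUT over HET (p = 0.0755) in the authors' deposited table. Fbn1 had 0.897 FPKM in MUT, 0.930 FPKM in HET and 0.919 FPKM in WT and Fbn2 3.09 FPKM in MUT, 2.78 FPKM in HET and 2.94 FPKM in WT. Sparcl1, a glial relative of Sparc, had 11.3 FPKM in MUT, 10.9 FPKM in HET and 10.0 FPKM in WT. Col4a3bp had 9.22 FPKM in MUT, 8.87 FPKM in HET and 9.40 FPKM in WT.

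Genes that make, bind or cut the matrix were looked at in 5 lists outside the members. No transcript of these lists was called in any comparison, and at an unadjusted p under 0.05 there were 2 of 278 transcripts of 0.5 FPKM or more in HET over WT (0.719%, both higher), 1 of 284 in MUT over WT (0.352%, higher) and 6 of 282 in MUT over HET (2.13%, 2 higher and 4 lower). Over all transcripts at that level the shares were 0.572% in HET over WT, 0.931% in MUT over WT and 0.888% in MUT over HET. Collagen processing enzymes had a median of 0.03 in HET over WT (15 of 26 above 0), 0.00 in MUT over WT (11 of 25) and 0.00 in MUT over HET (12 of 26). Plod2, a lysyl hydroxylase of collagen telopeptides, was at 3.09 FPKM in MUT and 1.64 FPKM in WT for 1 transcript (0.91 ± 1.01, p = 0.0460), and Loxl1, a cross-linking oxidase, at 0.378 FPKM in MUT and 0.559 FPKM in HET (-0.56 ± 0.61, p = 0.0423), in the authors' deposited tables. Integrins, syndecans and other matrix receptors had medians of 0.04 in each comparison, with 18 of 26 above 0 in HET over WT, 16 of 26 in MUT over WT and 18 of 26 in MUT over HET; Cd47, a thrombospondin receptor, was at 7.82 FPKM in HET and 6.07 FPKM in WT for 1 transcript (0.37 ± 0.41, p = 0.0483) in the authors' deposited table.

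Proteases and their inhibitors had medians of 0.01 in HET over WT (14 of 25 above 0), 0.00 in MUT over WT (13 of 26) and -0.01 in MUT over HET (11 of 26). Adamts15, a protease that cuts lecticans, was at 2.69 FPKM in MUT and 3.31 FPKM in HET (-0.30 ± 0.31, p = 0.0283) in the authors' deposited table. Hyaluronan and link protein genes had medians of 0.01 in HET over WT (6 of 10 above 0), 0.03 in MUT over WT (7 of 10) and 0.01 in MUT over HET (6 of 10), and no transcript at an unadjusted p under 0.05. Other matrix glycoproteins and proteoglycans had medians of 0.00 in HET over WT (23 of 45 above 0), -0.01 in MUT over WT (21 of 43) and 0.00 in MUT over HET (22 of 45). In MUT over HET, Spp1, which encodes osteopontin, was at 1.30 FPKM in MUT and 2.35 FPKM in HET (-0.85 ± 0.68, p = 0.0076), and Smoc1, a SPARC-related protein, at 11.9 FPKM in MUT and 9.81 FPKM in HET (0.28 ± 0.29, p = 0.0352), in the authors' deposited table. The elastin microfibril genes went apart there: Emilin1 was at 3.80 FPKM in MUT and 4.63 FPKM in HET (p = 0.0477) and Emilin3 at 0.519 FPKM in MUT and 0.226 FPKM in HET (p = 0.0211) in the authors' deposited table. Frem1, a basement membrane protein of developing epithelia, was at 1.51 FPKM in HET and 0.816 FPKM in WT (0.89 ± 0.95, p = 0.0459) in the authors' deposited table.

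**Figure D5:**
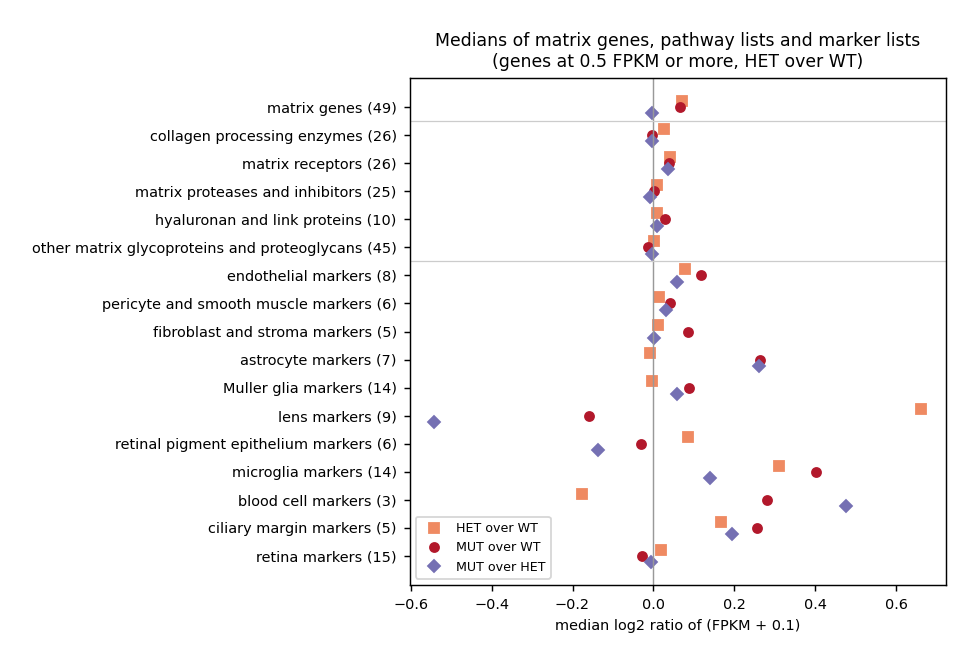
Median log2 ratio of (FPKM + 0.1) for the matrix genes, 5 pathway lists and 11 marker lists in HET over WT (squares), MUT over WT (circles) and MUT over HET (diamonds), with the number of genes at 0.5 FPKM or more in HET over WT in brackets. Matrix and pathway medians lie between -0.01 and 0.07. Those of lens, microglia, blood cell, astrocyte and ciliary margin markers reach farther from 0 than those of the other lists shown.

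Other marker lists gave the following values beside the matrix genes. Microglia markers had 14 of 14 above 0 in both comparisons with WT (medians 0.40 for MUT over WT and 0.31 for HET over WT) and summed to 139 FPKM in MUT and 98.6 FPKM in WT, and to 124 FPKM in HET and 97.6 FPKM in WT. C1qc, a complement subunit of microglia, was at 17.1 FPKM in MUT and 10.4 FPKM in WT (0.72 ± 0.42, q = 0.0726) in the authors' deposited table, and C1qa, C1qb, Ctss, Fcrls and Tyrobp also had an unadjusted p under 0.05 there without a call. Müller glia markers, the cells whose end feet meet the inner limiting membrane, had 10 of 14 above 0 in MUT over WT (median 0.09) and 7 of 14 in HET over WT (median 0.00). Prss56 of this list was at 5.34 FPKM in MUT and 8.69 FPKM in HET (-0.70 ± 0.33, q = 0.0762) in the authors' deposited table. In the table of HET and WT, Prss56 was at 8.68 FPKM in HET and 5.94 FPKM in WT (0.55 ± 0.42), without a call. HET was thus the highest group for Prss56, and MUT lay closer to WT. Blood cell markers had 3 of 7 at 0.5 FPKM and summed to 27.9 FPKM in MUT and 24.0 FPKM in WT, and to 19.6 FPKM in HET and 23.7 FPKM in WT. In MUT over HET, the haemoglobin gene Hba-a1 was at 4.99 FPKM in MUT and 3.14 FPKM in HET (p = 0.0442), and the retina marker Tfap2b at 30.5 FPKM in MUT and 36.2 FPKM in HET (p = 0.0493), in the authors' deposited table. The part of these cells in the matrix values was not tested.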

How the data were processed

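RNA from 15 retina samples (3 genotype groups of 5) was sequenced in bulk. Per the submitters' processing notes, Bowtie2, Cufflinks, Cuffdiff and the build mm10 were used. Per the file headers, the authors deposited 3 Cuffdiff tables, with an FPKM value per transcript for each of 2 groups, a log2 fold change, a p-value, a q-value and a test statistic (a score without fixed limits). Strand, poly(A) selection, replicate handling by Cuffdiff and depth per sample are not given in the sources used here. The deposited values are 1 per group, so no SD between samples can be given, and the labels do not say whether samples came from separate animals. The sample titles carry bracketed number pairs whose first number recurs in all 3 groups. What these mark is not stated, so a shared litter or batch is possible, and with pooled values it could not be examined. The p-values then reflect only the variation among these samples, possibly a technical one.

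Member genes were taken by symbol, transcript FPKM values were summed per gene and group, and genes under 0.5 FPKM in both groups of a table were left out. Gene ratios are log2 of (FPKM + 0.1), which understates changes of low genes. These sums have no test. A transcript was called at the authors' q-value under 0.05, and the unadjusted p is given beside it. The implied standard error is the absolute ratio of the deposited log2 fold change to the deposited test statistic. Each ± in the text is this error. A normal approximation to it does not return the p-values of Cuffdiff. Transcript names, classes and lengths came from GENCODE M release 21, on the same assembly as mm10. Promoter sequences came from RefSeq (GRCm38.p6). Tables were computed with pandas 2.3.3 under Python 3.11.15, after a check on simulated data. Members, roles and lists were chosen with earlier results of these data known. Named with values were the highest member of each role group, members with a transcript of 0.5 FPKM or more at an unadjusted p under 0.05, the 5 highest and 5 lowest gene ratios of each comparison, and genes of other lists at that p. All other transcripts, chain ratios and genes in the text were picked with their values known. Alternatives covered q-value and p-value thresholds, pseudocounts, filters, transcript sums, centring and membership.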

Additional observations from a re-analysis of the deposited data

How the results depend on the processing

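No member transcript was called at a q-value threshold of 0.10, or with the correction recomputed over the deposited rows, in any of the 3 comparisons. None was called at 0.01 or at 1 FPKM or more either, but these settings could not have added calls. The first lies below every deposited q-value, the smallest being 0.0388 in MUT over WT, and the second only removes transcripts. The counts at an unadjusted p under 0.05 (2 in HET over WT, 1 in MUT over WT and 3 in MUT over HET) were the same at 0.5 FPKM or more and over protein-coding transcripts, a setting chosen after seeing the data. At p under 0.01 they were 0, 0 and 1, and with a normal approximation to the test statistic 0, 0 and 0. The cause was not tested. Medians of gene ratios moved by less than 0.05 under all 9 alternatives, from 0.06 to 0.10 in HET over WT and from 0.06 to 0.09 in MUT over WT. In MUT over HET the median changed sign, to 0.021 at 2 FPKM or more and to 0.00062 without a filter, against -0.0032 as reported. No paired analysis was possible because the deposited columns carry 1 pooled value per group, so samples could be neither paired nor left out. Depth is unknown, and transcripts under 1 FPKM had the largest implied errors.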

Other observations

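Col26a1 and Col11a2 each had a coding transcript with lower values in both Cre groups while the gene's other coding transcript did not follow. These were chosen after their values were seen, none had an unadjusted p under 0.05, and both comparisons share the WT samples. How many member genes had such a split, in this or the reverse direction, was not counted. Col26a1-201 was at 1.19 FPKM in MUT and 2.89 FPKM in WT, and at 0.827 FPKM in HET and 2.87 FPKM in WT (p = 0.101 and 0.0614 in the authors' deposited tables), while Col26a1-202 was at 5.08 FPKM in MUT and 4.33 FPKM in WT, and at 5.01 FPKM in HET and 4.31 FPKM in WT. Col11a2-202 was at 0.410 FPKM in MUT and 0.880 FPKM in WT, and at 0.396 FPKM in HET and 0.876 FPKM in WT (p = 0.190 and 0.101 in the authors' deposited tables), while Col11a2-201 was at 1.32 FPKM in MUT and 1.10 FPKM in WT, and at 1.40 FPKM in HET and 1.09 FPKM in WT. How Cufflinks divides reads among overlapping transcripts enters each of these values and was not tested.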
